A study of Mus musculus with 90 samples.

Results

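The genes described here are 4 of the 37991 mouse genes in the count table: Oxt (ENSMUSG00000027301), Avp (ENSMUSG00000037727), Oxtr (ENSMUSG00000049112) and Avpr1a (ENSMUSG00000020123). They were taken as the rows whose Ensembl identifier maps to those symbols, and all 4 were followed library by library through 18 groups. The animals were resident C57BL/6J males, each housed with a C57BL/6J female until she was taken out 3 h before the trial. For 5 min a resident met either an unfamiliar BALB/cJ male behind wire mesh or, in the control groups, the same mesh cage with a paper cup in it. Hypothalamus, amygdala and frontal cortex were dissected 30, 60 or 120 min later, which with 2 conditions gives the 18 groups. A library of a resident that met the male is called an intruder library. Groups held 5 libraries, except hypothalamus controls at 30 min with 3 and frontal cortex at 120 min with 6 in each condition. The 90 libraries carry 32 animal labels, of which 28 have all 3 regions, and replicate numbers follow those labels. The labels used here give no age.

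Oxytocin and vasopressin are peptide hormones made mainly by large neurons of the paraventricular and supraoptic nuclei of the hypothalamus, which send them to the posterior pituitary and to other parts of the brain. Vasopressin is also made in the suprachiasmatic nucleus and in cells of the medial amygdala and the bed nucleus of the stria terminalis. Each peptide is cut from a precursor that also holds the neurophysin carrying it. Oxtr and Avpr1a encode receptors that couple mainly to Gq proteins and phospholipase C, and in rodents both have been tied to social recognition, aggression and bonding.

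Oxt and Avp lie next to each other on chromosome 2 and are read towards each other. Their 250 bases upstream of the RefSeq start (GRCm38.p6) are shown because the levels of the pair are compared throughout. The counts had been made on an older build, so these positions serve only to identify the sequence. Capitals mark AGGTCA or its reverse complement TGACCT, a motif of nuclear receptors, in Oxt (chr2:130575919-130576168, plus strand), and CACGTG, an E-box that reads the same on both strands, in Avp (chr2:130582589-130582838, minus strand).
Oxt: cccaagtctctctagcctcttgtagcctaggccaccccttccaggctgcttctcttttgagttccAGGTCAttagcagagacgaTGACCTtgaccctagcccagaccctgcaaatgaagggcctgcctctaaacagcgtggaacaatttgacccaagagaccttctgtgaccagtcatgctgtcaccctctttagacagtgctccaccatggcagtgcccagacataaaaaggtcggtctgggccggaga
Avp: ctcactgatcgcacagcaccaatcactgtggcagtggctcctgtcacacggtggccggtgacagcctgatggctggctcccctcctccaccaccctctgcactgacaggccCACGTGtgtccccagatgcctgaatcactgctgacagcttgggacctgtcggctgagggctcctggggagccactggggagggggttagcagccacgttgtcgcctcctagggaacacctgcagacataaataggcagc
The nuclear receptor motif was at bases 185 to 180 and, reversed, at 166 to 161 before the Oxt start, and the E-box at bases 139 to 134 before the Avp start. Of 32851 RefSeq promoter windows of that length, 14.0% held AGGTCA on either strand and 6.02% held CACGTG. A match describes these letters only, and no binding was measured.

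The libraries held 38.6 to 58.86 M reads on genes (median 49.01 M). Levels are given as CPM, the reads of a gene per 1 M gene reads after each library's total was scaled by TMM. The scale is common to all libraries. Hypothalamus and frontal cortex libraries carried the genes of their labels. A list of 10 hypothalamic genes summed to 318 to 910.1 CPM in hypothalamus, 4.3 to 13.3 CPM in amygdala and 0.622 to 6.02 CPM in frontal cortex, and 8 cortical genes summed to 1535 to 2254 CPM in frontal cortex. Amygdala libraries were less distinct. A list of 5 amygdala genes summed to 409 to 942 CPM in amygdala, 210 to 341 CPM in frontal cortex and 175 to 290 CPM in hypothalamus. As mean log2 levels of that list, amygdala and frontal cortex overlapped (4.87 to 6.07 against 4.79 to 5.28). A list of medial amygdala and bed nucleus had a median sum of 205 CPM in amygdala and 262 CPM in hypothalamus. Frontal cortex intruder 1 at 120 min, hypothalamus control 2 at 120 min and hypothalamus control 2 at 30 min were left out together in an alternative chosen after the values had been seen, and they are not the only libraries with much of a marker list. In 18 of the 90 libraries at least 1 list summed to over 3 times the median of the group, most often the choroid plexus list. Among them were amygdala control 5 at 60 min (choroid plexus 1780 against a median of 43.9 CPM), amygdala control 6 at 60 min (striatum 2040 against 345 and pituitary 19.3 against 1.48 CPM), hypothalamus control 6 at 120 min (thalamus 371 against 95.8 CPM) and frontal cortex intruder 2 at 60 min (hypothalamus 6.02 against 1.58 CPM). Hypothalamus control 2 at 120 min, though left out in that alternative, was not among the 18. Its cortical markers summed to 239 against a median of 88.5 CPM. Libraries at 30 min carry another tag in the table's column names than all later libraries, so a difference between 30 min and later cannot be told apart from whatever that tag stands for.

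In controls, the peptide genes were hypothalamic by a wide margin while the oxytocin receptor was highest in amygdala. Oxt averaged 192 ± 54.4 CPM in hypothalamus (SD, n = 13), 2.38 ± 2.02 CPM in amygdala (n = 15) and 0.162 ± 0.0933 CPM in frontal cortex (n = 16). Avp averaged 217 ± 48.8 CPM, 15.1 ± 13.4 CPM and 0.26 ± 0.145 CPM in the same order. In both genes every hypothalamic control was above every control of the other regions, beside 21.7% of all genes without overlap between hypothalamus and amygdala and 38.6% between hypothalamus and frontal cortex. Oxtr averaged 9.66 ± 3.84 CPM in hypothalamus (8.54 ± 0.857 CPM, n = 11, without control 2 at 30 min and at 120 min), 24 ± 6.14 CPM in amygdala and 8.2 ± 2.52 CPM in frontal cortex, and Avpr1a 5.44 ± 0.85 CPM, 1.03 ± 0.577 CPM and 0.206 ± 0.0971 CPM. The receptors thus had different orders: Avpr1a followed the peptides, and Oxtr did not.

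**Figure D1:**
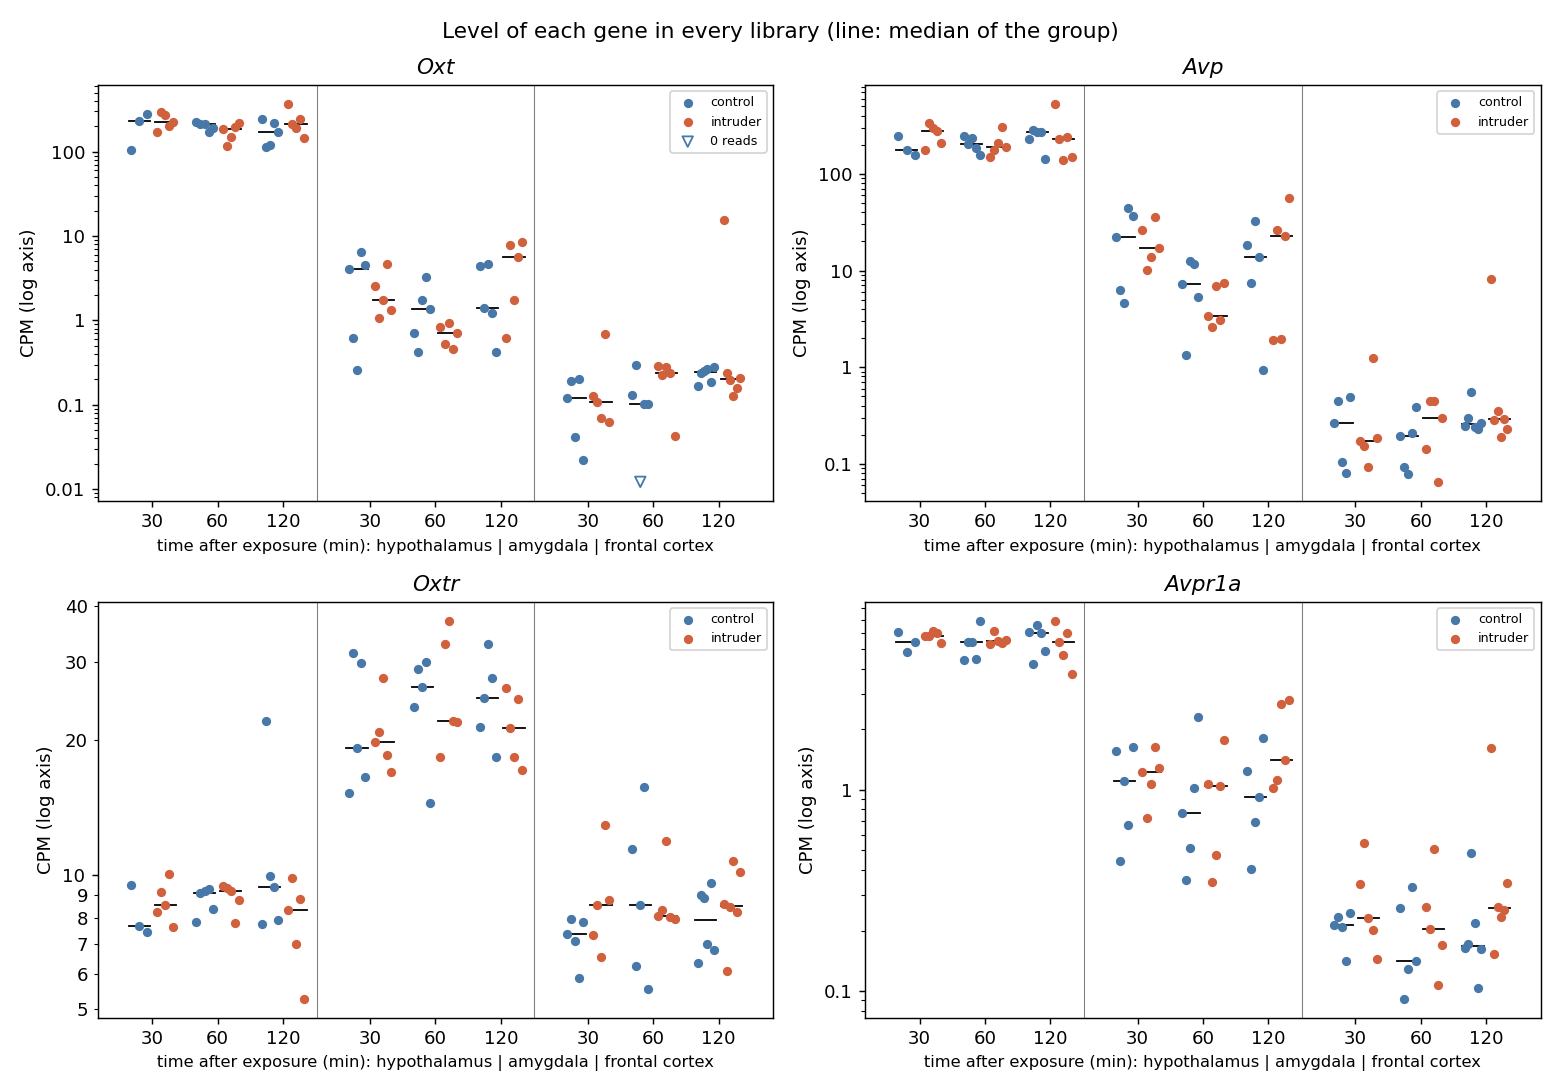
CPM on a log axis of Oxt, Avp, Oxtr and Avpr1a in each of the 90 libraries, by region, minutes after the exposure and condition (blue control, orange intruder), with a line at each group's median. Oxt, Avp and Avpr1a step down from hypothalamus to amygdala to frontal cortex, Oxtr peaks in amygdala, and frontal cortex intruder 1 at 120 min stands far above its group in 3 of the 4 genes.

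Of 12 tests between regions in controls, 11 passed with edgeR's quasi-likelihood F test and Benjamini-Hochberg adjustment over 18056 genes. That number stands against a background in which most genes differ: 72.3% of all genes passed between hypothalamus and amygdala, 82.2% between hypothalamus and frontal cortex and 67.8% between amygdala and frontal cortex. Oxt was higher in hypothalamus than in amygdala by 6.41 ± 0.28 on the log2 scale (SE), which is 84.8-fold, with adjusted p = 4.53e-22 by edgeR. This ranked 21 from the top of the 18056 differences. Avp was higher there by 3.97 ± 0.30, or 15.6-fold, with adjusted p = 7e-15 by edgeR. Avpr1a was higher by 2.40 ± 0.20, or 5.28-fold, with adjusted p = 1.33e-13 by edgeR. Oxtr went the other way, at -1.35 ± 0.15 log2 in hypothalamus minus amygdala, so that amygdala held 2.56 times the level, with adjusted p = 4.5e-10 by edgeR.

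Against frontal cortex the hypothalamic excess was 10.28 ± 0.38 log2 for Oxt, 9.68 ± 0.44 for Avp and 4.69 ± 0.24 for Avpr1a, with edgeR adjusted p of 1.5e-25, 1.92e-22 and 8.93e-21. The peptide differences ranked 5 and 9 from the top of all genes. Oxtr did not pass: its difference was 0.18 ± 0.15 log2, with a 95% interval of -0.12 to 0.49 and an edgeR adjusted p of 0.257. Amygdala exceeded frontal cortex in all 4 genes, by 3.87 ± 0.48 log2 for Oxt, 5.71 ± 0.45 for Avp, 1.54 ± 0.14 for Oxtr and 2.29 ± 0.25 for Avpr1a. The edgeR adjusted p of these was at most 3.96e-09. Control ranges of amygdala and frontal cortex overlapped in Oxt, Oxtr and Avpr1a and did not in Avp, beside 12.1% of all genes without overlap. The order of levels was therefore hypothalamus, amygdala, frontal cortex for Oxt, Avp and Avpr1a, with each neighbour different, and amygdala above hypothalamus and frontal cortex for Oxtr, the last 2 not told apart. In bulk tissue a lower level can reflect fewer cells of a type or less RNA per cell, and these cannot be told apart.

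Levels of different genes are compared per kilobase of exon, with exon lengths of 537 bases for Oxt, 577 for Avp, 4790 for Oxtr and 2670 for Avpr1a. In control hypothalamus Oxt stood at 357.8 ± 101.2 and Avp at 376 ± 84.6 CPM per kilobase (SD, n = 13), against 2.02 ± 0.801 for Oxtr and 2.04 ± 0.319 for Avpr1a. The means of the 2 ligand genes, and those of the 2 receptor genes, differed there by less than the SD between libraries. Without control 2 at 30 min and at 120 min Oxtr stood at 1.78 ± 0.179 and Avpr1a at 2.06 ± 0.308 (n = 11), a gap larger than the SD of Oxtr and smaller than that of Avpr1a. In control amygdala the receptors parted, with Oxtr at 5.02 ± 1.28 and Avpr1a at 0.385 ± 0.216 CPM per kilobase (n = 15). Avp stood at 26.1 ± 23.3 and Oxt at 4.43 ± 3.75 in the same libraries. In control frontal cortex Oxtr, at 1.71 ± 0.527 CPM per kilobase, was above Oxt at 0.302 ± 0.174, Avp at 0.451 ± 0.251 and Avpr1a at 0.0772 ± 0.0364 (n = 16). Per kilobase, Avp exceeded Oxt in 30 of 30 amygdala libraries, where the ratio of Oxt to Avp ran from 0.0608 to 0.948 with a median of 0.159. In hypothalamus the ratio ran from 0.42 to 1.92 around a median of 0.994, and Avp was the higher of the pair in 15 of 28 libraries.

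Whether meeting the intruder changed these genes was asked at each time in each region. None of the 36 tests, 4 genes in 9 comparisons, passed an adjusted p of 0.05 with edgeR, and 4 had an unadjusted p below 0.05. DESeq2 called 0 of 30, with 2 unadjusted p below 0.05, and gave no p for the other 6, of Oxt and Avp in frontal cortex. Over all genes edgeR called 0.0% in hypothalamus at 30 and 60 min and 0.192% at 120 min, 0.0%, 0.0% and 0.538% in amygdala, and 0.0% at all 3 times in frontal cortex. The ranges of control and intruder libraries overlapped in all 36, while over all genes the ranges did not overlap in 3.22%, 0.458% and 1.3% in hypothalamus at 30, 60 and 120 min, 0.776%, 0.376% and 3.13% in amygdala and 1.03%, 0.369% and 0.246% in frontal cortex. The library index went with condition in part: in amygdala 1 of 5 controls at 60 min had the index of the intruder libraries and 1 of 5 intruder libraries at 120 min that of the controls, so index and condition can hardly be separated there. In frontal cortex at 120 min no index was shared, and the 2 cannot be told apart. Values are listed by replicate number. At 30 min these are 1 to 5, but 2, 3 and 5 in hypothalamus controls. At 60 min they are 1, 2, 3, 5 and 6 in controls and 1 to 5 in intruder libraries, and at 120 min 1, 2, 3, 4 and 6 in hypothalamus and amygdala and 1 to 6 in frontal cortex.

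Oxt in hypothalamus was measured on 5646 to 17500 reads per library. Oxt stood at 105, 229 and 282 CPM in the controls at 30 min and at 297, 274, 199, 226 and 174 CPM in the intruder libraries. After 60 min Oxt was 226, 215, 210.4, 169.8 and 192 CPM in controls and 188, 116, 148, 195 and 219.8 CPM in intruder libraries. By 120 min the control values of Oxt were 246, 113, 119, 220.3 and 169 CPM and the intruder values 369, 215, 191, 242 and 146 CPM. Control 2 at 30 min, with 105 CPM, and controls 2 and 3 at 120 min, with 113 and 119 CPM, were the lowest controls, and intruder 1 at 120 min was the highest library of the region. The log2 difference was 0.19 ± 0.29 (SE) at 30 min, -0.22 ± 0.25 at 60 min and 0.42 ± 0.25 at 120 min, with edgeR adjusted p of 0.99996, 0.99991 and 0.527. The 95% interval at 120 min was -0.10 to 0.94, and 4 of 5 intruder libraries were above the control mean. Under the alternative settings described further on, the 120 min difference ran from 0.19 to 0.58 log2. In hypothalamus at 120 min the 5 endothelial markers, all with reads, summed to 107 to 120.2 CPM in controls and 68.8 to 94.6 CPM in intruder libraries, the 1 of 117 comparisons of list sums without overlap. Their part in the differences of the 4 genes at that time was not tested. The 30 min value turned to -0.13 without control 2, a library with 9.36 CPM of Agrp and 5.62 CPM of Rax, genes of the arcuate nucleus and tanycytes, against at most 0.232 and 0.0967 CPM in the other 2 controls. The 10 hypothalamic markers, all with reads in every hypothalamic library, summed to 802 CPM in it, 413 and 492.9 CPM in the other controls and 585.8 to 795.5 CPM in the 5 intruder libraries of that time, so on this list the other 2 controls were the low ones. The part of this makeup in the Oxt values was not tested.

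Avp in hypothalamus was measured on 6139 to 25224 reads per library. The 30 min controls held 248, 177 and 158 CPM of Avp, and the 30 min intruder libraries 341, 299.8, 280, 210.1 and 177 CPM. For 60 min the Avp values were 245, 205, 237, 186 and 159 CPM in controls and 149, 176, 212, 304 and 188 CPM with the intruder. Avp at 120 min was 231, 289, 274, 270.5 and 143 CPM in controls and 532, 232, 141, 242 and 149.8 CPM in intruder libraries. Intruder 1 at 120 min held 532 CPM, more than any other library, and the same animal gave the highest Oxt. Its 10 hypothalamic markers all had reads and summed to 910.1 CPM, against 465 to 649 CPM in the other 4 intruder libraries, and its 7 magnocellular and paraventricular markers to 361 against 189.8 to 296 CPM. The log2 difference in Avp was 0.43 ± 0.32 at 30 min, -0.00021 ± 0.28 at 60 min and 0.10 ± 0.28 at 120 min, with edgeR adjusted p of 0.99996, 0.99991 and 0.908. Without intruder 1 the value at 120 min was -0.34. The 95% intervals allow a rise of up to 1.09 log2 at 30 min.

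Oxtr in hypothalamus lay in a narrow range in all libraries but 1. Oxtr stood at 9.51, 7.67 and 7.46 CPM in the controls at 30 min and at 9.15, 8.56, 10.03, 7.64 and 8.23 CPM in the intruder libraries. After 60 min Oxtr was 7.85, 9.08, 9.18, 9.29 and 8.38 CPM in controls and 9.43, 9.34, 9.19, 7.79 and 8.8 CPM in intruder libraries. By 120 min the control values of Oxtr were 7.74, 22.1, 9.92, 9.41 and 7.92 CPM and the intruder values 8.32, 9.82, 6.98, 8.84 and 5.28 CPM. Control 2 at 120 min held 22.1 CPM, and the other 27 hypothalamic libraries held at most 10.03 CPM. The difference at 120 min, -0.55 ± 0.20 log2 with a 95% interval of -0.95 to -0.14, had an unadjusted p of 0.0111 and an edgeR adjusted p of 0.335. All 5 intruder libraries were under the control mean, which that library raised: without it the difference was -0.16 and the adjusted p 0.781 by edgeR. In the same library all 8 cortical markers had reads and summed to 239 CPM against 71.9 to 121 CPM in the other 4 controls, and Slc17a7, the vesicular glutamate transporter of cortical neurons, stood at 167 CPM against 2.89 to 22.5 CPM. The part of that tissue in the Oxtr value was not tested. At 30 and 60 min the differences were 0.09 ± 0.23 and 0.027 ± 0.20 log2.

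Avpr1a in hypothalamus had a coefficient of variation of 14% over all 28 libraries, and Oxtr one of 30.7%. Without control 2 at 30 min and at 120 min they were 13.5% and 12.5%. The 30 min controls held 6.06, 4.83 and 5.42 CPM of Avpr1a, and the 30 min intruder libraries 5.83, 6.13, 6.04, 5.36 and 5.84 CPM. For 60 min the Avpr1a values were 4.43, 5.44, 5.43, 4.45 and 6.88 CPM in controls and 5.27, 6.18, 5.47, 5.38 and 5.52 CPM with the intruder. Avpr1a at 120 min was 6.05, 4.22, 6.61, 6.03 and 4.91 CPM in controls and 6.92, 5.43, 4.7, 6.01 and 3.76 CPM in intruder libraries. No group stood apart at any time. The log2 differences were 0.10 ± 0.16, 0.07 ± 0.13 and -0.06 ± 0.14 at 30, 60 and 120 min, and the widest 95% interval, at 30 min, was -0.22 to 0.42. Among the 12 hypothalamic tests these are the tightest limits on a response.

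In amygdala the peptide transcripts varied many-fold between animals of a group. Oxt ranged over 0.259 to 8.57 CPM, with a coefficient of variation of 94.8%, on 12 to 416 reads. Oxt stood at 4.12, 0.612, 0.259, 6.55 and 4.48 CPM in the controls at 30 min and at 2.58, 1.06, 1.74, 4.71 and 1.34 CPM in the intruder libraries. After 60 min Oxt was 0.703, 0.422, 1.73, 3.25 and 1.38 CPM in controls and 0.832, 0.521, 0.925, 0.455 and 0.717 CPM in intruder libraries. By 120 min the control values of Oxt were 4.43, 1.41, 4.66, 1.21 and 0.427 CPM and the intruder values 0.611, 7.91, 1.72, 5.63 and 8.57 CPM. At 60 min the 5 intruder libraries lay within a narrow band and under the control mean, and at 120 min 3 of them were above all controls while intruder 1 was near the lowest control. The log2 difference was -0.49 ± 0.70, -1.12 ± 0.78 and 1.01 ± 0.69 at 30, 60 and 120 min, with edgeR adjusted p of 0.9997, 0.813 and 0.487. Without control 5 the value at 60 min was -0.62, and under the alternative settings the 30 min value ran from -0.92 to 0.45. The intervals are wide, -2.72 to 0.49 at 60 min and -0.41 to 2.43 at 120 min.

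Avp in amygdala ranged over 0.932 to 56 CPM. The 30 min controls held 22.1, 6.22, 4.58, 44.5 and 37.1 CPM of Avp, and the 30 min intruder libraries 26.2, 10.2, 13.8, 35.6 and 17.2 CPM. For 60 min the Avp values were 7.25, 1.33, 12.5, 11.6 and 5.34 CPM in controls and 3.37, 2.63, 6.89, 3.08 and 7.43 CPM with the intruder. Avp at 120 min was 18.4, 7.42, 32.5, 13.9 and 0.932 CPM in controls and 1.89, 26.2, 1.95, 22.9 and 56 CPM in intruder libraries. The libraries low in Oxt were largely those low in Avp, among them control 6 and intruder 1 at 120 min and control 2 at 60 min. Differences were -0.15 ± 0.75, -0.70 ± 0.80 and 0.58 ± 0.76 log2 at 30, 60 and 120 min, with edgeR adjusted p of 0.9997, 0.931 and 0.733. Single libraries set the sign at 30 and 120 min: the value was 0.24 without control 4, 0.094 without control 5 and 0.022 without intruder 2 at 30 min, and -0.15 without intruder 6 at 120 min. Of the 10 hypothalamic markers 6 to 10 had reads in an amygdala library, and they summed to at most 13.3 CPM. The 7 magnocellular and paraventricular markers were not as low, with sums of 54.3 to 148 CPM against 189.8 to 361 CPM in hypothalamus. The part of neighbouring tissue in the amygdala peptide values was not tested beyond the correlations given further on.

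Oxtr in amygdala ranged over 14.5 to 37.1 CPM. Oxtr stood at 15.2, 31.3, 19.2, 29.9 and 16.6 CPM in the controls at 30 min and at 19.9, 20.9, 27.6, 18.5 and 17 CPM in the intruder libraries. After 60 min Oxtr was 23.8, 28.9, 26.3, 29.9 and 14.5 CPM in controls and 18.4, 32.8, 37.1, 22.1 and 22 CPM in intruder libraries. By 120 min the control values of Oxtr were 21.4, 24.9, 32.8, 27.6 and 18.3 CPM and the intruder values 26.2, 21.4, 18.3, 24.8 and 17.2 CPM. The groups interleaved at all 3 times, and the lowest library, control 6 at 60 min, was also the control with the most Avpr1a. The log2 differences were -0.11 ± 0.22, 0.10 ± 0.22 and -0.21 ± 0.22, with edgeR adjusted p of at least 0.665.

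Avpr1a in amygdala rested on 16 to 135 reads per library. The 30 min controls held 1.56, 0.443, 1.1, 0.665 and 1.63 CPM of Avpr1a, and the 30 min intruder libraries 1.23, 0.727, 1.07, 1.62 and 1.28 CPM. For 60 min the Avpr1a values were 0.769, 0.358, 0.517, 1.02 and 2.29 CPM in controls and 1.07, 0.347, 0.473, 1.04 and 1.76 CPM with the intruder. Avpr1a at 120 min was 1.24, 0.406, 0.69, 0.923 and 1.81 CPM in controls and 1.02, 1.12, 2.67, 1.4 and 2.78 CPM in intruder libraries. At 120 min intruders 3 and 6 were above all controls, the other 3 lay within the control range, and 5 of 5 were over the control mean. The difference there was 0.82 ± 0.46 log2, with a 95% interval of -0.13 to 1.76 and an edgeR adjusted p of 0.396. The 6 striatal markers, all with reads, summed to 213 to 1191 CPM in those controls and 339 to 1236 CPM in those intruder libraries, and the 8 cortical markers to 608 to 1198 and 364 to 991 CPM. At 30 and 60 min the differences were 0.14 ± 0.47 and -0.09 ± 0.48 log2.

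Frontal cortex held few peptide reads, and the largest estimates of the whole set came from a single library there. Outside that library Oxt was counted in at most 34 reads, and 1 library, control 3 at 60 min, had 0 reads. A count of 0 allows up to 0.0728 reads per 1 M gene reads there, before TMM scaling. The 30 min controls held 0.119, 0.192, 0.0416, 0.201 and 0.0221 CPM of Oxt and the intruder libraries 0.127, 0.109, 0.0692, 0.688 and 0.0621 CPM. After 60 min they were 0.13, 0.299, 0, 0.103 and 0.101 CPM in controls and 0.284, 0.225, 0.279, 0.237 and 0.0425 CPM in intruder libraries. By 120 min controls ran from 0.165 to 0.282 CPM (median 0.244) and intruder libraries from 0.127 to 15.4 CPM (median 0.202). The high end at 120 min is intruder 1, and the other 5 intruder libraries held 0.127 to 0.2403 CPM, none above the highest control. The log2 difference was 3.58 ± 0.93 with an unadjusted p of 0.000572 and an edgeR adjusted p of 0.4. It was the highest of the 17091 differences. Without intruder 1 it was -0.33 (edgeR adjusted p = 0.99997).

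Avp behaved likewise. At 30 min frontal cortex controls held 0.261, 0.447, 0.104, 0.0803 and 0.487 CPM and intruder libraries 0.17, 0.152, 0.0923, 1.25 and 0.186 CPM. At 60 min they held 0.195, 0.0919, 0.0777, 0.205 and 0.385 and 0.142, 0.451, 0.441, 0.0647 and 0.297 CPM. At 120 min controls ran from 0.229 to 0.55 CPM (median 0.255) and intruder libraries from 0.191 to 8.24 CPM (median 0.288). Intruder 1 at 120 min and intruder 4 at 30 min were the 2 libraries over 1 CPM, and both were also the highest in Oxt at their time. The difference at 120 min was 2.43 ± 0.78 log2 (edgeR adjusted p = 0.601), ranked 7 from the top, and -0.18 without intruder 1. At 30 and 60 min the log2 differences were 0.88 ± 1.44 and 0.72 ± 1.44 for Oxt and 0.46 ± 0.98 and 0.51 ± 1.08 for Avp. Without intruder 4 the 30 min values were -0.33 for Oxt and -0.85 for Avp. The 60 min values ran from 0.44 to 1.26 for Oxt and from 0.26 to 1.16 for Avp under the alternative settings.

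Intruder 1 at 120 min also carried genes of other regions. All 7 magnocellular and paraventricular markers had reads. Crh and Pdyn, at 6.03 and 43.9 CPM, lay within the range of the other 5 intruder libraries, and the remaining 5 were above it, with Sim1 at 0.664 CPM against 0 in those libraries, Otp at 0.734 against at most 0.0229, Gal at 4.39 against at most 0.183 and Trh at 11.9 against at most 2.7 CPM. The list summed to 71.1 CPM against 37.7 to 57.3 CPM. All 10 hypothalamic markers had reads and summed to 5.36 against 1.1 to 2.4 CPM, with Nkx2-1 at 3.14 against at most 0.911 CPM, while Hcrt, Pmch and Agrp lay within the range of the others. The 6 markers of medial amygdala and bed nucleus, where Avp is also made, summed to 109 against 39.8 to 88.2 CPM. Hypothalamus libraries carried that list too (median 262 CPM, against 205 CPM in amygdala), so it does not tell these tissues apart. Frontal cortex intruder 2 at 60 min had a higher hypothalamic sum, 6.02 CPM, with 0.225 CPM of Oxt and 0.451 CPM of Avp. The 6 thalamic markers summed to 126 against 47.9 to 49.7 CPM, and the 5 choroid plexus markers to 238 against 9 to 80.9 CPM. Its 8 cortical markers summed to 1535 CPM, under the 1946 to 2124 CPM of the others. The pituitary hormone genes Gh, Prl, Tshb and Cga had 0 reads in it. The part of this tissue in its Oxt, Avp and Avpr1a was not tested. The hypothalamus of the same animal held the highest Oxt and Avp of its region, and its amygdala was low in both, with 0.611 CPM of Oxt and 1.89 CPM of Avp.

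Oxtr in frontal cortex was well counted, on 231 to 766 reads, and the groups overlapped at each time. Oxtr stood at 7.36, 7.96, 7.09, 5.86 and 7.84 CPM in the controls at 30 min and at 7.34, 8.54, 6.53, 12.9 and 8.77 CPM in the intruder libraries. After 60 min Oxtr was 11.4, 6.25, 8.55, 15.7 and 5.55 CPM in controls and 8.1, 8.36, 11.9, 8.05 and 7.96 CPM in intruder libraries. By 120 min controls ran from 6.34 to 9.57 CPM (median 7.93) and intruder libraries from 6.09 to 10.7 CPM (median 8.52). Control 5 at 60 min was the highest cortical library and intruder 4 at 30 min the next. The log2 differences were 0.29 ± 0.21, -0.10 ± 0.21 and 0.14 ± 0.19 at 30, 60 and 120 min, with edgeR adjusted p of 0.801, 0.99994 and 0.993. Under the alternative settings the 30 min value ran from 0.11 to 0.39.

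Avpr1a in frontal cortex rested on 4 to 92 reads. The 30 min controls held 0.214, 0.234, 0.208, 0.141 and 0.243 CPM of Avpr1a, and the 30 min intruder libraries 0.339, 0.544, 0.231, 0.202 and 0.145 CPM. For 60 min the Avpr1a values were 0.26, 0.0919, 0.13, 0.329 and 0.142 CPM in controls and 0.261, 0.205, 0.511, 0.108 and 0.17 CPM with the intruder. At 120 min controls ran from 0.104 to 0.486 CPM (median 0.168) and intruder libraries from 0.153 to 1.61 CPM (median 0.258). Intruder 1 was again the highest at 120 min, and 5 of 6 intruder libraries were above the control mean. The difference at 120 min was 1.17 ± 0.48 log2 (edgeR adjusted p = 0.851), and 0.18 without intruder 1. At 30 and 60 min it was 0.48 ± 0.57 and 0.36 ± 0.59 log2. Under the alternative settings these values ran from -0.11 to 0.66 and from -0.065 to 0.65.

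**Figure D2:**
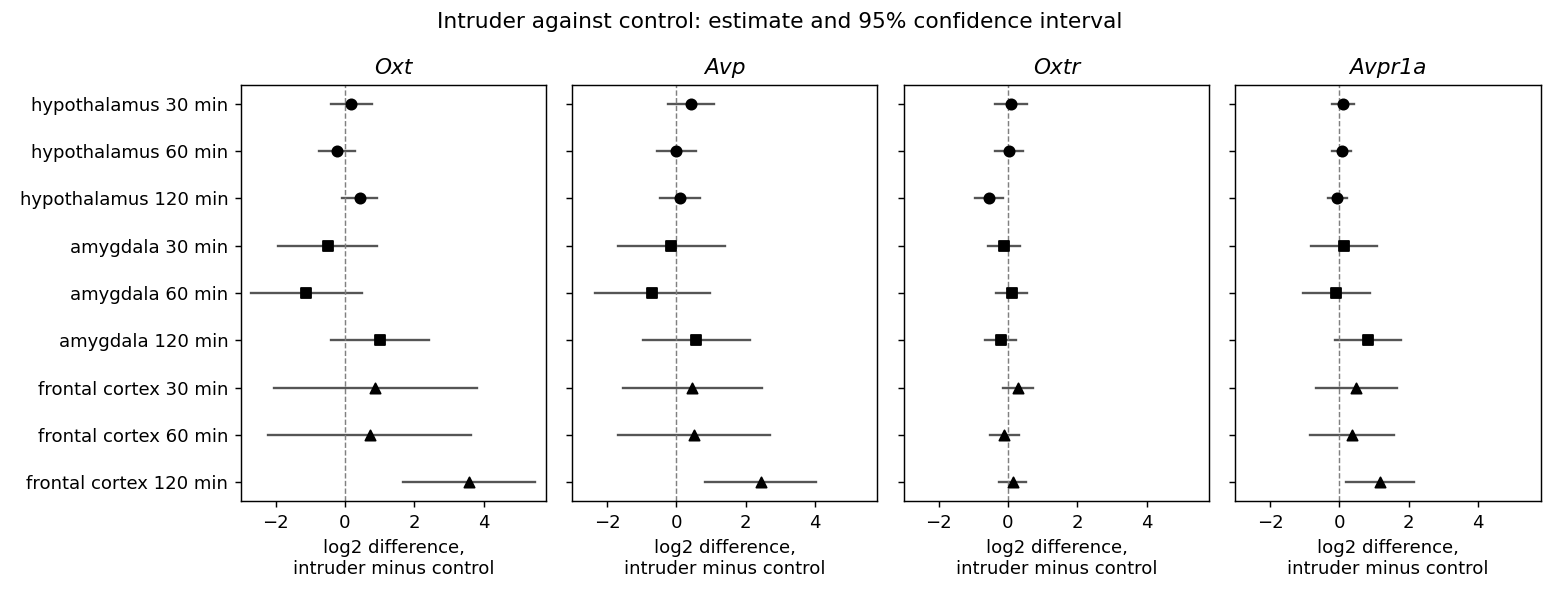
Log2 difference, intruder minus control, of each gene in each region and time, with its 95% confidence interval (circles hypothalamus, squares amygdala, triangles frontal cortex). The intervals leave out 0 for Oxtr in hypothalamus at 120 min and for Oxt, Avp and Avpr1a in frontal cortex at 120 min, none past the adjusted threshold, and they are widest for the peptide genes in amygdala and frontal cortex.

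The intruder effect was also compared between times and between regions. The test of a difference between the 3 times passed for 0 of 12 gene and region pairs with edgeR, and for 0 of the 10 with a p by DESeq2, each with 0 unadjusted p below 0.05. Over all genes it passed for 0.0113% in hypothalamus and 0.0% in amygdala and frontal cortex. The test of a difference between the 3 regions passed for 0 of 12 gene and time pairs with edgeR, again with 0 unadjusted p below 0.05, and over all genes for 0.0% at each time. DESeq2 called 0 of those 12 as well, with 2 unadjusted p below 0.05, for Oxt at 60 and 120 min. Among controls alone, time passed for 0 of 12 with edgeR and 0 of 10 with DESeq2, and both gave 0 unadjusted p below 0.05. The contrast of 120 with 30 min in controls passed for 0 of 12 with edgeR, with 1 unadjusted p below 0.05, and for 0 of 10 with DESeq2, also with 1. Over all genes that contrast passed for 0.175% in hypothalamus, 0.145% in amygdala and 4.42% in frontal cortex. Over all genes the test over the 3 times passed for 0.181% in hypothalamus, 0.232% in amygdala and 33.4% in frontal cortex. None of the 4 was among the many cortical genes that passed for time, or for the tag that goes with it, and their edgeR adjusted p in frontal cortex ran from 0.294 for Oxtr to 0.968 for Avpr1a.

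A list of 29 genes around these peptides was followed alongside, covering the other vasopressin receptors, prohormone processing, release and degradation, regulators of the peptide genes and receptor signalling. The table had 28 of them, and 26 passed the filter on low counts in hypothalamus and amygdala and 24 in frontal cortex. The other receptors, Avpr1b and Avpr2, averaged 0.0292 and 0.00844 CPM in control amygdala, 0.02 and 0.00522 CPM in frontal cortex and 0.0173 and 0.00133 CPM in hypothalamus, and were not tested. In the 9 intruder comparisons edgeR called 0 of 228 tests of listed genes, with 3 unadjusted p below 0.05, and DESeq2 called 0 with 5. The median log2 difference of the list lay between -0.0307 and 0.0442 over the 9 comparisons. The lowest adjusted p was 0.166 by edgeR, for Cd38, an enzyme needed for oxytocin release, in amygdala at 120 min (0.47 ± 0.17 log2).

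Between regions in controls most listed genes differed, as most genes did. Between hypothalamus and amygdala 13 of 26 were higher and 11 lower in hypothalamus, against 35.9% and 36.4% of all genes. Of 5 regulators of the peptide genes 4 were higher and 0 lower, among them Otp, a homeobox factor those neurons need, by 3.38 ± 0.16 log2, Caprin2, an RNA-binding protein that acts on Avp mRNA, by 1.20 ± 0.06, and Sim1 by 1.12 ± 0.13. Of 8 genes of prohormone processing and storage 5 were higher, such as Scg2, a granin of secretory granules, by 0.94 ± 0.07 and the convertase Pcsk1 by 0.89 ± 0.09, and 3 were lower: Cpe at -0.50 ± 0.04, Chgb at -0.62 ± 0.06 and Pcsk2 at -0.13 ± 0.047. Both genes of release and degradation were higher, with Cd38 by 2.45 ± 0.09. Of 11 genes of receptor signalling 8 were lower, such as Plcb1 at -1.44 ± 0.06 and Itpr1 at -1.37 ± 0.08, 2 were higher, Plcb4 by 1.32 ± 0.08 and Rgs2 by 0.11 ± 0.05, and Plcb3 did not pass at -0.034 ± 0.047. Against frontal cortex 13 were higher in hypothalamus and 12 lower, against 41.4% and 40.8% of all genes, with Sim1 higher by 10.39 ± 0.28 and Rgs4, a brake on Gq signalling, at -2.22 ± 0.08. Between amygdala and frontal cortex 10 were higher in amygdala and 14 lower, against 34.6% and 33.2%. With time in frontal cortex controls 13 of 24 passed, beside the 33.4% of all genes, with Itpr1 at the lowest adjusted p (0.000564 by edgeR).

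Animals of the same group differed enough to ask which genes varied together. For each library the log2 level (CPM plus 0.1) was taken as its deviation from the mean of its group, and correlations were computed over the libraries of a region with 100000 permutations. In all 162 relations were computed within regions, of which 108 involve marker lists chosen after values had been seen, and 36 passed an adjusted p of 0.05 by both Pearson's and Spearman's measure: 6 in hypothalamus, 18 in amygdala and 12 in frontal cortex. In amygdala Oxt and Avp varied together: Pearson's r was 0.891 and Spearman's rho 0.899 over 30 libraries, with adjusted p of 0.000147 and 0.000162, from permutation p at the smallest they can give, 1e-05. Within each of the 3 times r was at least 0.784, and without the 2 libraries farthest from the median it was 0.865. In hypothalamus, where both genes were far higher, the same pair gave r = 0.298 and rho = 0.23 over 28 libraries, with adjusted permutation p of 0.231 and 0.392. Without control 2 at 30 min and control 2 at 120 min it gave r = 0.582 and rho = 0.482 over 26 libraries, with adjusted permutation p of 0.0103 and 0.0526, and without the 2 libraries farthest from the median r was 0.14, so the value depends on which libraries are left out. By time r was -0.0883, 0.301 and 0.488 at 30, 60 and 120 min. The difference between the correlations in amygdala and hypothalamus was not tested.

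**Figure D3:**
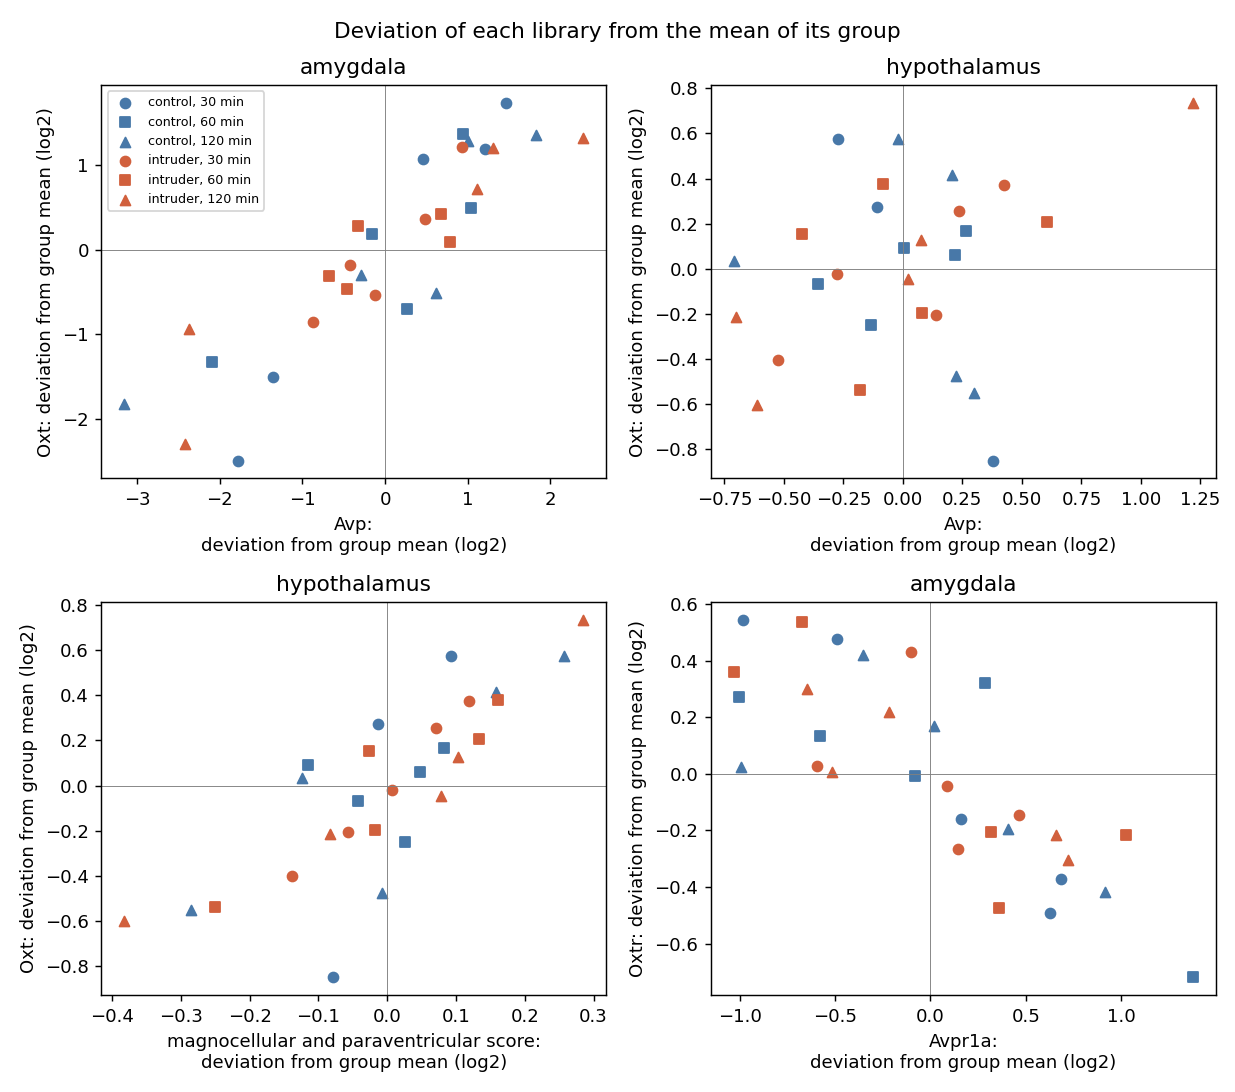
Deviation of each library from the mean of its group on the log2 scale, for Oxt against Avp in amygdala and hypothalamus, Oxt against the magnocellular and paraventricular marker score in hypothalamus, and Oxtr against Avpr1a in amygdala (colour condition, shape time). The amygdala peptide pair follows a rising line (r = 0.891), the hypothalamic pair scatters (r = 0.298, and 0.582 without 2 libraries), Oxt rises with the marker score (r = 0.808), and the amygdala receptor pair falls (r = -0.8).

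The receptors in amygdala moved in opposite directions. For Oxtr against Avpr1a Pearson's r was -0.8 and Spearman's rho -0.812 over 30 libraries, with adjusted permutation p of 0.000147 and 0.000162, and r within 30, 60 and 120 min was -0.845, -0.82 and -0.76. Both receptors varied with marker lists, in opposite directions. For the list of 5 amygdala genes r was 0.649 and rho 0.673 with Oxtr, and r was -0.841 and rho -0.845 with Avpr1a. Oxtr also rose with the list of medial amygdala and bed nucleus (r = 0.517, rho = 0.507), with r of 0.909, 0.11 and 0.582 at 30, 60 and 120 min, so that the relation was weak at 60 min. Oxtr fell with the striatal score (Pearson's r was -0.897 and Spearman's rho -0.906) and rose with the cortical score (Pearson's r was 0.709 and Spearman's rho 0.715). Avpr1a did the reverse: for the striatal score Pearson's r was 0.919 and Spearman's rho 0.899, and for the cortical score Pearson's r was -0.909 and Spearman's rho -0.915. Adjusted permutation p was at most 0.000249 in the 4 relations to striatum and cortex, and r within the 3 times lay between -0.947 and -0.847, 0.693 and 0.831, 0.882 and 0.94, and -0.929 and -0.872. Without the 2 farthest libraries r was -0.869, 0.648, 0.894 and -0.881. The striatal markers, 6 of 6 with reads in every library, summed to 193.8 to 2040 CPM over amygdala libraries, and the 8 cortical markers to 363 to 1382 CPM. Oxtr also fell with the oligodendrocyte score (r = -0.848), and Avpr1a rose with it (r = 0.861). Oxt and Avp showed no such relation to striatum, with r of 0.0156 and -0.0859, and Oxt rose with the hypothalamic score (r = 0.541, rho = 0.493, adjusted permutation p 0.00828 and 0.0291). Without the 2 farthest libraries that r was 0.4. Avp came close to passing with the hypothalamic score too (r = 0.429, rho = 0.44, adjusted permutation p 0.0542 and 0.0599). Avp rose with the magnocellular and paraventricular score (r = 0.499, rho = 0.459, adjusted permutation p 0.019 and 0.0455), with r of 0.0742, 0.516 and 0.701 at the 3 times, so that it was near 0 at 30 min. The part of dissection in these relations was not tested.

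In hypothalamus both peptides rose with the magnocellular and paraventricular list, and Avp also with the list of 10 hypothalamic genes. Oxt rose with the magnocellular and paraventricular score of Sim1, Otp, Creb3l1, Pdyn, Trh, Crh and Gal: Pearson's r was 0.808 and Spearman's rho 0.816, with adjusted permutation p of 0.000147 and 0.000162 and r of 0.835, 0.772 and 0.894 at 30, 60 and 120 min. Avp rose with the list of 10 hypothalamic genes (Pearson's r was 0.658 and Spearman's rho 0.699, adjusted permutation p 0.000945 and 0.000864), with r of 0.723, 0.128 and 0.866 at the 3 times, so that the relation was weak at 60 min. Without the 2 farthest libraries r was 0.759 for Oxt and 0.612 for Avp. For Avp and the magnocellular and paraventricular score r was 0.532 and rho 0.472, with adjusted permutation p 0.0152 and 0.0488, and r was 0.317 without the 2 farthest libraries. Differences between these correlations were not tested. Oxt had r = -0.134 with the list of 10 hypothalamic genes. Avp fell with the thalamic score (r = -0.665, rho = -0.557). That r was -0.352, -0.138 and -0.844 at 30, 60 and 120 min and -0.534 without the 2 farthest libraries, so it was strongest at 120 min, where 2 libraries reached 371 and 315 CPM of thalamic markers. Avpr1a fell with it too (r = -0.563, rho = -0.648, with r of -0.867, -0.276 and -0.61 at the 3 times), as well as with the endothelial score (r = -0.672, rho = -0.664). Oxtr passed with no list there over all 28 libraries. Without control 2 at 30 min and at 120 min it passed with 3, the hypothalamic list (r = 0.644, rho = 0.672), the oligodendrocyte list (r = -0.601, rho = -0.603) and the endothelial list (r = -0.632, rho = -0.547), and with Avpr1a (r = 0.586, rho = 0.531, against 0.0164 and 0.28 with all libraries). In the same 26 libraries r was 0.854 for Oxt and 0.708 for Avp with the magnocellular and paraventricular score, 0.67 for Avp with the hypothalamic list, and -0.635 for Avp and -0.687 for Avpr1a with the thalamic score. In frontal cortex Oxt and Avp gave r = 0.783 over 32 libraries but rho = 0.384, with adjusted permutation p of 0.000648 and 0.0841, and r was 0.31 without the 2 farthest libraries, so the relation rests on those libraries.

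**Figure D4:**
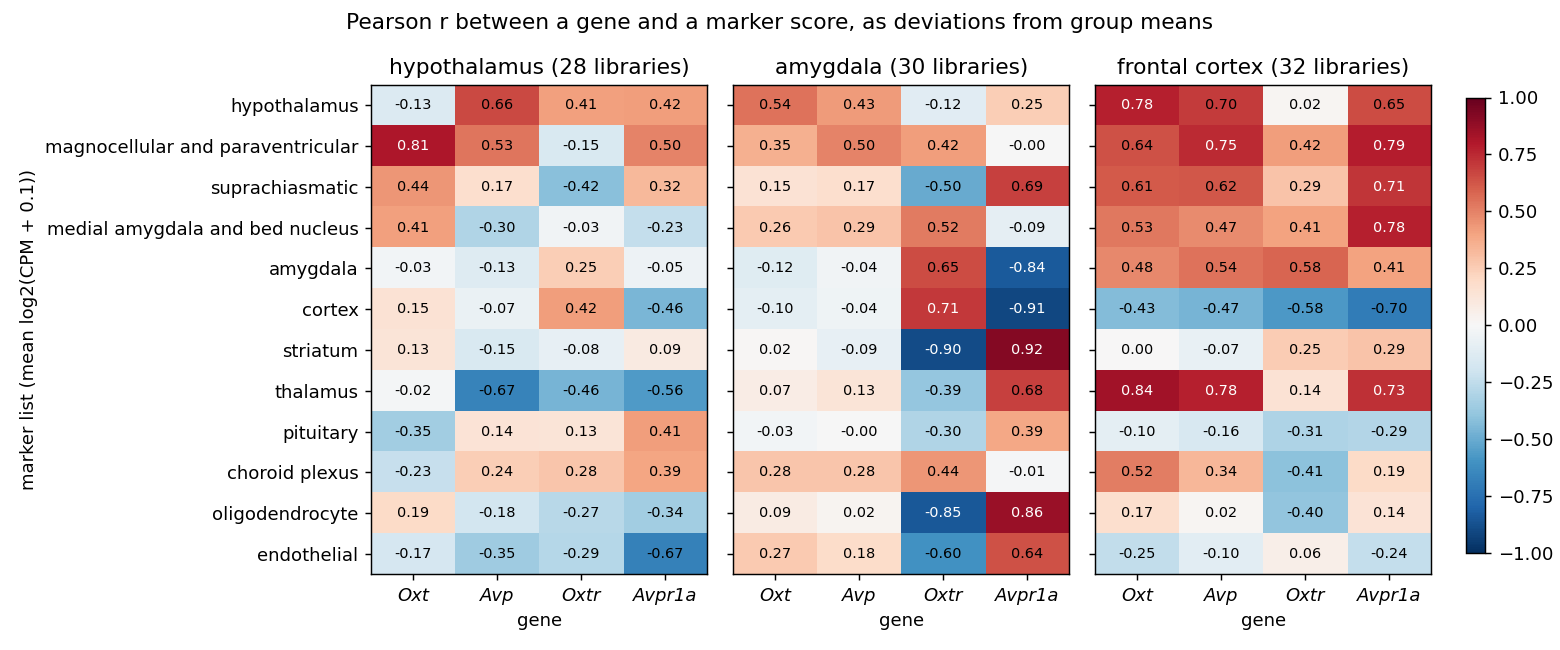
Pearson's r between each gene (columns) and 12 marker scores (rows), as deviations from group means, over the libraries of each region (colour scale from -1 to 1). In amygdala Oxtr and Avpr1a have opposite signs with the cortex, striatum and oligodendrocyte lists and the peptides are near 0 with them. In frontal cortex Oxt, Avp and Avpr1a have positive r with the hypothalamic and thalamic lists, but those with the thalamic list did not pass by Spearman's measure, and none passed without intruder 1 at 120 min, where r with the thalamic list was 0.16, 0.293 and 0.371.

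The genes most like each member, by Pearson's r of the same deviations over the 28 hypothalamic libraries among 17675 genes, differed for all 4. For Oxt they were Gsc (r = 0.868), Trh (0.805), the thyrotropin-releasing hormone gene that is also in the marker list above, and Agtr1a (0.799), an angiotensin receptor. For Avp they were Fkbp11 (0.876), Pnck (0.872) and Ddost (0.866), the last a subunit of the oligosaccharyltransferase of the endoplasmic reticulum. For Oxtr they were Hpcal4 (0.922), Kcnf1 (0.903) and Hrk (0.898), and control 2 at 120 min is the library farthest from its group in Oxtr. For Avpr1a they were B630019K06Rik (0.788), Minar2 (0.765) and Cd99l2 (0.759). In amygdala, looked at after the values had been seen, the gene most like Oxt among 17276 was Avp (0.891), and the next stood at 0.69. The nearest to Oxtr was Pcdh8 (0.966) and to Avpr1a Osbpl9 (0.969), with Isl1, a homeobox factor of striatal projection neurons, at 0.96. These are descriptions, with no test.

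Whether an animal high in a gene in a given region was high in it in another was asked of 12 relations. Of these, 4 genes by 3 pairs of regions over 28 or 30 animals, added after values had been seen, 0 passed after adjustment by either measure. Oxt in hypothalamus and amygdala gave r = -0.111 and rho = -0.152 (permutation p 0.574 and 0.434, adjusted 0.689 and 0.868), and Avp r = -0.0432 and rho = -0.0536. The closest to the threshold was Oxtr in hypothalamus and amygdala, with r = 0.373 and rho = 0.527 (permutation p 0.0475 and 0.00458, adjusted 0.297 and 0.055) and r = 0.51 without the 2 farthest animals. Between hypothalamus and frontal cortex Oxt gave r = 0.228 and rho = -0.00712 and Avp r = 0.347 and rho = 0.00219, with r of -0.0564 and -0.12 without the 2 farthest animals. Intruder 1 at 120 min was the highest library in both genes in both of these regions. Between amygdala and frontal cortex Oxt gave r = -0.335 and rho = -0.202.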

How the data were processed

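The authors deposited raw counts, given as an unscaled integer for each gene, from stranded poly(A) mRNA libraries. Per the submitters' processing notes the tools were CASAVA 1.8.2, TopHat2 2.0.8, HTSeq 0.6.1, edgeR 3.2.4 and R 3.0.0, with genome build NCBIM37; the annotation release and the strand setting of the counting are not given in the sources used here. Per the series' design text RNA samples were pooled to generate libraries, while each library carries an animal label, and replicates are taken as those animals. Rows without a gene were left out: reads with no feature were 8.63% to 14.46% of a library, those overlapping several genes 0.63% to 0.76%, and multiply aligned ones 9.79% to 11.5%. All 90 value columns were matched to samples. Symbols came from gene names of Gencode M21, which named 32919 of 37991 identifiers, and exon lengths from the same annotation. A gene on the strand opposite Avpr1a in Gencode M21, Gm48877, is not among the rows used here, so its reads were not examined.

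With edgeR 4.0.16 under R 4.3.3, each region was fitted with 1 coefficient per condition and time, genes were kept by filterByExpr, libraries were scaled by TMM, and each contrast went through the quasi-likelihood F test. Controls of all regions were fitted together for differences between regions, and each time's libraries for differences of the intruder effect between regions. P-values were adjusted by Benjamini-Hochberg over all genes tested (17676 in hypothalamus, 17277 in amygdala, 17091 in frontal cortex), all 4 genes passed the filter in each region, and the threshold was 0.05. Tests are two-sided. The scripts were tested on simulated counts with known changes. Those counts had a fixed, low spread in each region. They therefore say nothing on detection of genes as variable as Oxt and Avp in amygdala and frontal cortex. Alternatives were DESeq2 1.42.0, RLE scaling, no filter, a fit of 2 groups alone, blocks and each library left out. Marker scores are means of log2(CPM + 0.1). No 2 libraries had identical counts. Reads carry no molecular identifiers, so limits at 0 reads cover counting error only. Genes named beside the 4 are listed pathway or marker genes and the 3 most alike by correlation. The genes and lists were chosen with earlier results of these data known.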

Additional observations from a re-analysis of the deposited data

Results flagged for a closer look

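In groups of 4 to 10 libraries the gap between the highest or lowest library and its neighbour was set against the range of the group by Dixon's ratio. Of 136 such values, from the highest and the lowest library of each group, 12 exceeded the 95% critical value, where chance gives about 3.4. In frontal cortex at 120 min intruder 1 was the highest of 6 in Oxt (15.39 CPM), Avp (8.245 CPM) and Avpr1a (1.607 CPM), and control 3 was the highest control in Avp (0.5497 CPM) and Avpr1a (0.4862 CPM). In frontal cortex at 30 min intruder 4 was the highest of 5 in Oxt (0.6881 CPM) and Avp (1.255 CPM). Its 10 hypothalamic markers, 6 with reads, summed to 1.24 CPM within the 0.807 to 1.9 CPM of the other 4, and its 7 magnocellular and paraventricular markers to 39.1 CPM within 34.2 to 64.3 CPM. Its 5 amygdala markers summed to 341 CPM, above the 210.2 to 333 CPM of the others. In frontal cortex at 60 min intruder 5 was the lowest of 5 in Oxt (0.04245 CPM, from 2 reads) and intruder 3 the highest in Oxtr (11.93 CPM).

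In hypothalamus intruder 1 at 120 min was the highest of 5 in Avp (532.4 CPM, against 140.7 to 242 CPM in the others), control 2 at 120 min the highest in Oxtr (22.13 CPM, against 7.74 to 9.92 CPM), and intruder 2 at 60 min the highest in Avpr1a (6.182 CPM, against 5.27 to 5.52 CPM). No amygdala value was far from its group by this measure.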

How the results depend on the processing

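The number of the 4 genes called was the same under every alternative run: 0 in the tests of the intruder, of time and of their differences, and 11 of 12 between regions, also with the animal as a block. DESeq2 gave no p for the 6 intruder tests of Oxt and Avp in frontal cortex. With the replicate number as a block, 0 of the intruder tests were called. The numbers were not taken as pairs, since the correlations of same-numbered libraries ran from -0.534 to 0.587 and every pair exceeded 0.1 in 0 of 9 sets. A block of library index could not be fitted in frontal cortex at 120 min. Elsewhere both conditions shared 1 index, and the blocked value compares the libraries on it. In amygdala that leaves 1 control at 60 min and 1 intruder library at 120 min, so blocked values there rest on 1 library in an arm, assumed to vary like the others. Of the single log2 differences under an alternative, 1130 kept their direction and 50 changed it, all in intruder comparisons and none called, so the sign of these differences is not settled. The cause was not tested. With the replicate number as a block Avp turned to -0.044 in hypothalamus at 120 min and 0.17 in amygdala at 30 min, and at 60 min in amygdala Oxtr turned to -0.030 and Avpr1a to 0.35. With the library index as a block the value turned, in hypothalamus, to -0.042 for Oxt at 30 min, 0.19 for Avp and -0.029 for Oxtr at 60 min and -0.031 for Avp at 120 min. In amygdala it turned to 0.45 for Oxt and 0.91 for Avp at 30 min and 0.28 for Avpr1a at 60 min, and in frontal cortex to -0.11 for Avpr1a at 30 min and 0.017 for Oxtr at 60 min. Avp in hypothalamus at 60 min, next to 0 to begin with, was 0.0047 with DESeq2, 0.0048 with RLE scaling, 0.0063 without a filter, 0.0011 in a fit of 2 groups alone and 0.0065 without 3 libraries left out together (hypothalamus control 2 at 30 and at 120 min, frontal cortex intruder 1 at 120 min). Without those libraries, an alternative chosen after seeing the data, Oxt turned to -0.13 in hypothalamus at 30 min, and in frontal cortex at 120 min Oxt turned to -0.33 and Avp to -0.18.

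With each library of the 2 groups left out in turn, these differences changed sign at least once. In hypothalamus the range was -0.13 to 0.49 for Oxt at 30 min, -0.18 to 0.096 for Avp and -0.0071 to 0.071 for Oxtr at 60 min, and -0.34 to 0.26 for Avp and -0.17 to 0.045 for Avpr1a at 120 min. In amygdala it was -0.43 to 0.24 for Avp, -0.23 to 0.045 for Oxtr and -0.057 to 0.34 for Avpr1a at 30 min, -0.058 to 0.21 for Oxtr and -0.45 to 0.48 for Avpr1a at 60 min, and -0.15 to 1.09 for Avp at 120 min. In frontal cortex it was -0.33 to 1.19 for Oxt and -0.85 to 0.77 for Avp at 30 min, -0.25 to 0.16 for Oxtr and -0.065 to 0.65 for Avpr1a at 60 min, and -0.33 to 3.83 for Oxt and -0.18 to 2.69 for Avp at 120 min. Under some alternative that kept the sign, 10 differences moved by more than 1 SE, of which 4 are among those that changed sign under another. With the library index as a block Oxt in amygdala at 60 min, against the 1 control, was -0.026. At 120 min the 1 intruder library gave 1.82 for Oxt, 1.94 for Avp, -0.54 for Oxtr and 1.45 for Avpr1a. Oxtr in hypothalamus at 120 min went to -0.76. With the replicate block Oxt in frontal cortex at 120 min went to 1.17 and Avp to 0.89. Without the 3 libraries 36 of 162 relations passed again, but 29 were shared: 7 in frontal cortex were lost, all 3 with the hypothalamic list among them, and 7 with Oxtr were gained, 4 in hypothalamus and 3 in frontal cortex. The 18 in amygdala, where no library was left out, all remained. Over all genes the intruder calls depended on the tool: 34 became 90 in hypothalamus and 93 became 356 in amygdala at 120 min with DESeq2, and 0 in both with a fit of 2 groups alone. With single libraries left out they ran from 19 to 53 and from 6 to 218. Where 0 were called, they reached 20 in frontal cortex at 120 min without intruder 2 there, and without amygdala control 1 at 60 min 7 in amygdala at 60 min and 60 for the intruder effect between times. DESeq2 also called more genes over all for time in controls, 150 against 32 in hypothalamus and 166 against 40 in amygdala, and for 120 against 30 min, 130 against 31 and 93 against 25. Where intruder effects at the 3 times were compared it called 23 against 2 in hypothalamus, 108 against 0 in amygdala and 4 against 0 in frontal cortex, and between regions 6 against 0 at 30 and at 120 min. Other alternatives lowered the calls for time in controls and for 120 against 30 min. With the library index as a block both fell to 0 in amygdala, and without the 3 libraries to 9 and 11 in hypothalamus. Peptide genes in frontal cortex rest on few reads and varied widely between libraries, and small changes there could not be seen. The parts of depth and of that spread were not tested.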
